A study of Mus musculus with 17 samples.

Results

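Complement components were followed in Kupffer cells (KCs), macrophages that reside in liver sinusoids. They were the 9 genes C1qa, C1qb, C1qc, C2, C3, C4b, C6, Cfb and Cfp, taken by gene symbol from the 25124 genes that each of the 3 deposited RNA-seq tables listed. All 9 were listed in each table, and all 9 passed the filter on low values in each comparison, which asked for the level of 10 counts or more in at least 3 libraries (2 in the comparison of genotypes).

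KCs were sorted from mouse liver as TIM4+CD206+ cells, the main subset, or TIM4+CD206high cells, a minor subset. Each subset was taken from tumour-free livers (n = 3) and from livers 2 weeks after pancreatic tumour cells had been injected into the portal vein (n = 3). In a separate experiment without tumour, KCs of Clec4f-cre;Id3f/f mice (n = 2) were compared with those of Id3f/f mice (n = 3). In the former, a cre recombinase expressed from the KC gene Clec4f removes the floxed Id3 gene, which codes for an inhibitor of DNA binding. Both genotypes carry the floxed alleles, and ages were not given in the sources used here. The labels number the replicates without saying which animals they came from, so p-values measure the spread between these samples. Values are given on the regularized log2 scale on which they were deposited, which draws genes with few reads towards their mean. The 3 tables were normalized separately, so no level was tested between them.

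Complement is a cascade of plasma proteins that tags microbes and dying cells for uptake. In the classical pathway C1q, built from A, B and C chains, binds the target, and the proteases C1r and C1s then cut C4 and C2 to form an enzyme that cleaves C3. In the alternative pathway factor B (Cfb) forms this enzyme and properdin (Cfp) stabilizes it, and C6 belongs to the membrane attack complex that follows. Hepatocytes make most complement proteins of the plasma, whereas C1q and properdin are known as products of macrophages and other myeloid cells.

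The C1q chain genes lie side by side on chromosome 4 of GRCm38, all on the minus strand, with C1qb at chr4:136880129-136886187, C1qc at chr4:136889804-136893065 and C1qa at chr4:136895917-136898803. Id3, at chr4:136143497-136145755, is on the same chromosome, and C1qb begins 734374 bases after its end. C4b (chr17:34728380-34743882), Cfb (chr17:34856374-34862518) and C2 (chr17:34862604-34898265) share the class III region of the major histocompatibility complex. C3 is at chr17:57203970-57228136, C6 at chr15:4727175-4814967 and Cfp at chrX:20925454-20931555. C2 begins 86 bases beyond Cfb on the same strand, and the annotated readthrough gene Gm20547 overlaps 6107 bases of Cfb and 19439 bases of C2, so reads of these genes could be shared. C4b has a near-identical copy, C4a, which stood between 3.84 and 4.54 in the tumour experiment, and the split of reads between both is uncertain.

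Promoters of 5 of the 9 genes (C1qb, C1qc, C3, C6 and Cfp) were matched in RefSeq's table for GRCm38.p6. The stretches of C1qb and C1qc are shown because the C1q chains moved together after Id3 deletion, and that of C3 because C3 moved the other way. They lie at chr4:136886201-136886450, chr4:136893066-136893164 and chr17:57228137-57228386 on the minus strand, and positions are counted from the RefSeq start of transcription, with −1 the base before it. The C1qc stretch runs from −250 to −152, where the gene begins in the annotation used for the locations above. Capitals mark matches to the motifs below.
C1qb: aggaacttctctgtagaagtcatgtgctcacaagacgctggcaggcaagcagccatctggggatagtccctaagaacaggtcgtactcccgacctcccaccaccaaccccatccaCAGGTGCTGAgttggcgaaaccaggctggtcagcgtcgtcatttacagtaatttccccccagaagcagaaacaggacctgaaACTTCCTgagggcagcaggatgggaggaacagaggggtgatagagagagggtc
C1qc: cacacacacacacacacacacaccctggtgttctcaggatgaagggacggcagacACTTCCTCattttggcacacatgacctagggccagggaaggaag
C3: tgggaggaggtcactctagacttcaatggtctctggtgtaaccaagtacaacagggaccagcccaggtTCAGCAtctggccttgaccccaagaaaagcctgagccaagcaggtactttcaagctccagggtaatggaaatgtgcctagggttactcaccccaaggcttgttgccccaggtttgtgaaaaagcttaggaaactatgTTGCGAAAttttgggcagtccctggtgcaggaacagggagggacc

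Both strands were searched in windows of 250 bases before to 50 after each start. The E-box CAGGTG, a motif of the E proteins that ID proteins bind, was found in C1qb at −135, where it shares its last bases with TGCTGA, a half-site of MAF factors. CAGGTG is in 20.2% and TGCTGA in 19.5% of all 32851 promoters. AGGAAGT, a motif of the macrophage factor PU.1, was read on the minus strand of C1qb at −53 and of C1qc at −195, where it overlaps the related GAGGAAG, and these motifs are in 9.35% and 13.6% of promoters. The C3 promoter held TGCTGA on the minus strand at −182 and the C/EBP motif TTGCNNAA at −45, which is in 10.8% of promoters. The E-box CAGCTG, the interferon-stimulated response element and the NF-kB motif were in none of the 5 windows, and are in 16.3%, 3.44% and 5.55% of all promoters.

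C1q was among the most abundant messages of the sorted cells. Per kb of transcript, C1qb stood at 18.99 ± 0.44 (log2 level, SD, n = 3) in tumour-free TIM4+CD206+ KCs, rank 2 of the 23757 genes with a length. C1qa followed at 18.36 ± 0.42 and C1qc at 18.30 ± 0.20, ranks 6 and 8, and the 2 did not differ beyond their spread. Cfp stood at 16.79 ± 0.34, rank 23. The remaining components lay lower by far, in the order C6 (12.97 ± 0.16), C4b (12.80 ± 0.52), Cfb (12.39 ± 0.67), C2 (12.11 ± 0.40) and C3 (10.08 ± 0.82). Among these, C6, C4b, Cfb and C2 overlapped with their neighbours in the order, and C3 stood apart.

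The order was similar in the other control groups, with shifts of C4b. In tumour-free TIM4+CD206high KCs, C1qb (17.58 ± 0.21), C1qc (16.98 ± 0.39), C1qa (16.80 ± 0.46) and Cfp (15.71 ± 0.14) again led C6 (13.29 ± 0.49), C4b (12.12 ± 0.08), Cfb (12.08 ± 0.57), C2 (11.30 ± 0.71) and C3 (9.73 ± 0.92). In Id3f/f KCs, C1qb stood at 18.23 ± 0.06 per kb, C1qc at 17.80 ± 0.03, C1qa at 17.30 ± 0.07 and Cfp at 15.71 ± 0.08, and no 2 of them overlapped. C6 (12.34 ± 0.20) and Cfb (12.02 ± 0.18) were next, then C2 (10.89 ± 0.07), C4b (9.25 ± 0.26) and C3 (8.53 ± 0.06). C4b, which carries the cleaved fragment that binds to targets, thus ranked 417 and 567 of all genes in the tumour-free subsets and 2547 in Id3f/f KCs, values of separately normalized tables.

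**Figure D1:**
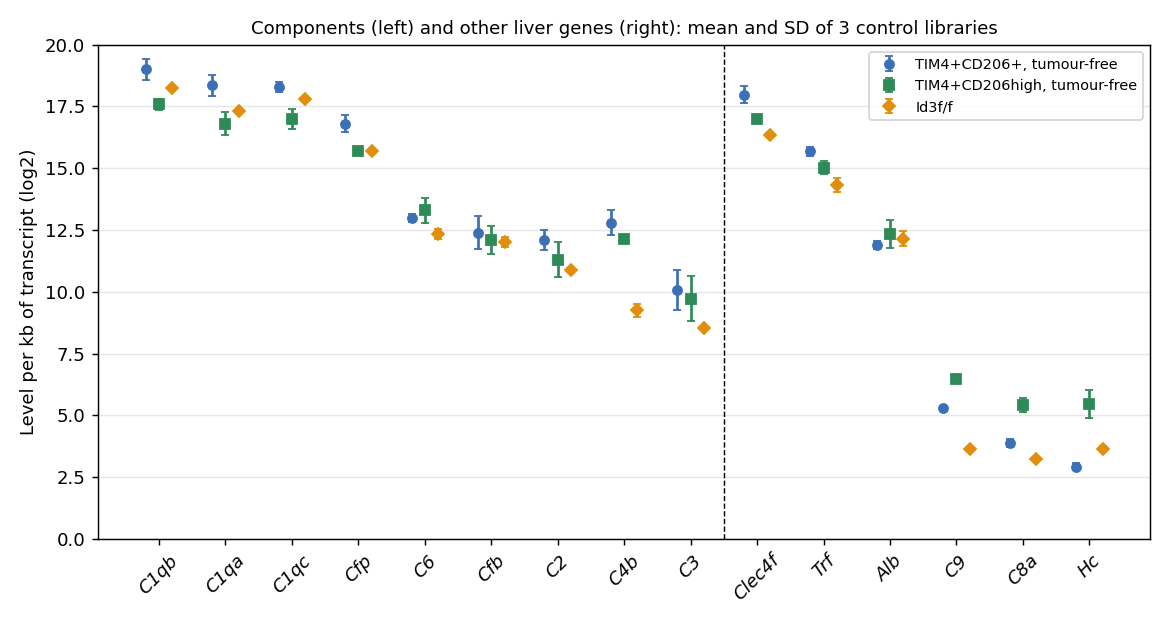
Level per kb of transcript (log2 scale, y axis) of the 9 components, left of the dashed line, and of 6 other liver genes, right of it, as mean and SD of 3 libraries in each of the 3 control groups. The C1q chains and Cfp stand between 15.71 and 18.99, and the other components between 8.53 and 13.29.

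The libraries held RNA of other cells, as far as their markers show it. Of 18 hepatocyte markers all passed the filter, and their summed level was 17.36 to 17.57 in tumour-free and 16.68 to 17.01 in tumour TIM4+CD206+ KCs, against 16.81 to 17.13 and 16.45 to 16.68 in TIM4+CD206high KCs. In these comparisons 9 and 10 of the 18 fell with tumour and none rose, with median differences of −1.34 and −1.52. Of all tested genes 0.998% and 2.03% fell, and 2.55% and 5.21% rose, beside which all counts of markers with tumour are to be read. The sum was taken on the linear scale, so Trf, the most abundant of the 18, weighs most in it. Tumour epithelium markers rose in both subsets (13 of 13 tested each), monocyte (4 of 10 each), neutrophil (5 and 4 of 10) and other macrophage markers (7 and 6 of 9) rose in part, and B cell markers fell (3 of 4 and 2 of 5). None of the dendritic, T and NK cell markers passed the test in either subset. Means of all 7 T and NK cell markers were lower with tumour in TIM4+CD206+ and TIM4+CD206high KCs, with medians of −0.41 and −0.71. Of these, 3 and 5 did not overlap, beside 10.5% and 15.2% of all tested genes that were lower so. The medians of the dendritic markers were 0.08 and −0.01. Of stellate and fibroblast markers 3 of 12 fell in TIM4+CD206high KCs and none of 11 passed the test in TIM4+CD206+ KCs (median difference −0.17). Sinusoidal endothelium markers summed to 17.89 to 18.46 in tumour-free TIM4+CD206high KCs and 17.20 to 17.51 with tumour, where 3 of 12 fell, and to 14.18 to 15.13 in TIM4+CD206+ KCs. KC markers summed to 20.73 to 21.19 in tumour-free and 20.26 to 20.36 in tumour TIM4+CD206+ KCs, without overlap, where 3 of 12 fell and the median difference was −0.39. They summed to 19.85 to 20.36 and 19.69 to 19.88 in TIM4+CD206high KCs, where none of 12 passed the test and the median difference was −0.27. In sorted populations, fewer cells of a type and less RNA per cell cannot be told apart. In the Id3 experiment hepatocyte markers summed to 16.28 to 16.70 in controls and 16.29 to 16.40 after deletion, where 1 of 18 rose and 1 fell, and of 12 KC markers 3 rose and 2 fell. Of 12 endothelial markers 1 rose and 3 fell, and 3 of 9 other macrophage, 1 of 8 monocyte and 1 of 8 neutrophil markers fell. No tumour epithelium, stellate, dendritic, B, T or NK cell marker passed the test. Over all tested genes 3.37% fell and 3.08% rose after deletion. Some tumour-free libraries stood apart. Apoe read 17.16, 20.05 and 17.67 in TIM4+CD206+ KCs and 17.78, 19.60 and 15.59 in TIM4+CD206high KCs, Id3 read 14.62, 14.49 and 13.43 in the latter, and the Y-linked gene Ddx3y read 8.30, 7.19 and 8.76 in the former. The part of any of these markers in the differences below was not tested.

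The first comparison asked how KCs of the main subset differ in a tumour-bearing liver. The mean of each of the 9 components was lower with tumour in TIM4+CD206+ KCs, where 47.9% of all tested genes were lower. C2 fell, and the other 8 did not pass the test. C2, the protease that C1s activates, stood at 13.74, 13.04 and 13.74 in the tumour-free libraries and at 12.60, 12.37 and 12.60 with tumour. The groups did not overlap, and the difference was −0.99 (SE 0.22), or 1.98-fold lower, with an adjusted p of 0.0479 (limma, Benjamini-Hochberg). Of all 13233 genes tested, 0.998% fell and 2.55% rose.

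C3, on which all pathways converge, showed the widest difference and the widest spread. Its values were 12.90, 11.50 and 12.93 in tumour-free and 11.50, 11.03 and 11.18 in tumour libraries, so that tumour-free library 2 lay at the level of tumour library 1. The difference was −1.21 (SE 0.37, adjusted p = 0.133, limma). Cfb, which takes the place of C2 in the alternative pathway, read 14.32, 13.07 and 14.15 against 13.21, 12.97 and 12.91 (−0.82, adjusted p = 0.221, limma). Tumour-free library 2 was again within the tumour range. C4b read 15.67, 14.66 and 15.34 against 14.89, 14.51 and 14.72 (−0.52, adjusted p = 0.361, limma), and C6 14.64, 14.52 and 14.32 against 14.12, 13.73 and 13.74 (−0.63, adjusted p = 0.0976, limma). C6 did not overlap between the groups, and C4b did.

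The myeloid components showed smaller differences in C1q and a larger one in properdin. Cfp, the stabilizer of the alternative enzyme, read 17.80, 17.13 and 17.58 in tumour-free and 16.82, 16.68 and 16.73 in tumour libraries. These groups did not overlap, but the difference of −0.76 (SE 0.21) did not pass the test (adjusted p = 0.0931, limma). C1qa read 18.80, 17.96 and 18.48 against 17.99, 17.86 and 18.06, C1qb 19.50, 18.64 and 19.21 against 18.80, 18.67 and 18.83. In both chains tumour-free library 2 lay within or below the tumour values. C1qc read 18.77, 18.36 and 18.56 against 18.13, 18.07 and 18.16, without overlap. The differences of the chains were −0.45, −0.35 and −0.44, with adjusted p-values of 0.397, 0.541 and 0.258 (limma). With quantile normalization C1qb was at −0.04, C1qc at −0.20 and Cfp at −0.41.

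Counted over the 9, 4 had tumour values wholly below the tumour-free ones (C1qc, C2, C6 and Cfp), beside 10.5% of all tested genes, none wholly above, beside 12.9%, and the median difference was −0.63, beside 0.02 for all tested genes. Tumour-free library 2 was the lowest of its group in 8 of the 9 components and in 41.4% of all tested genes, and tumour library 2 was the lowest of its group in 8 of 9 and 38%. Without tumour-free library 2, 8 of 9 fell, all but C6, with differences of −0.67 (C1qa), −0.59 (C1qb), −0.54 (C1qc), −1.68 (C3) and −0.95 (Cfp), in a fit that called 7.64% of all genes against 469 of 13233 with all libraries. Without tumour-free library 1 the differences shrank to −0.25 (C1qa), −0.16 (C1qb) and −0.30 (C4b). No component passed the test when any library other than tumour-free library 2 was left out. A fit blocked on replicate number treats these libraries as pairs, which the labels do not state. In it C2, C3, C6 and Cfb fell (4 of 9), with adjusted p-values of 0.00776 for C3, 0.0405 for C6 and 0.0454 for Cfb (limma), and 7.75% of all genes passed.

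**Figure D2:**
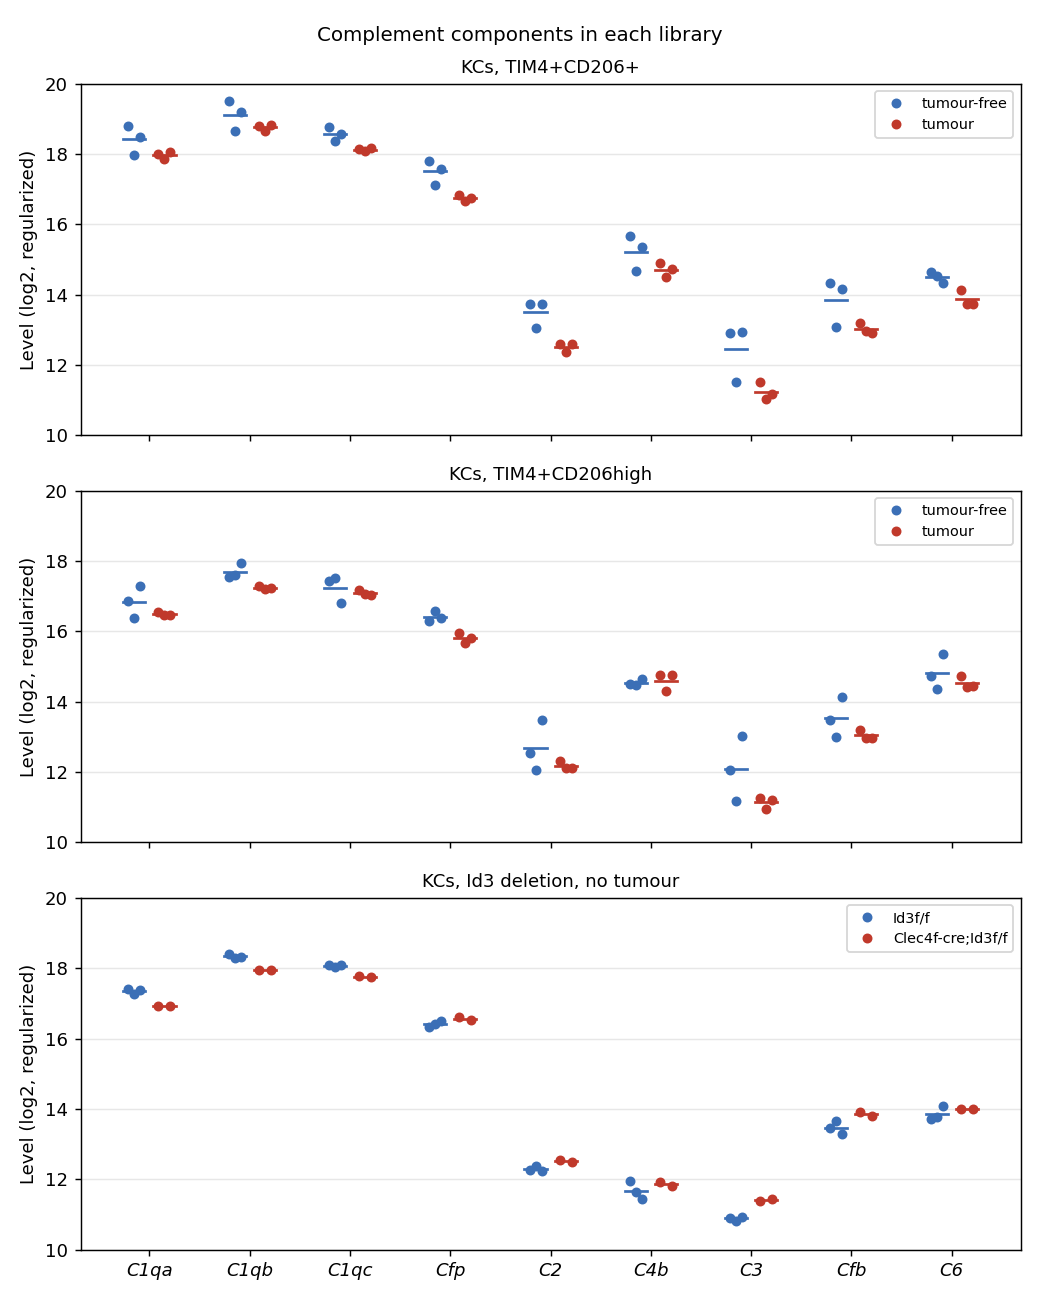
Level of each component in each library (regularized log2 scale, y axis), in the 3 tables; points are libraries in replicate order from left to right, bars their means, blue the control group and red the tumour or Id3-deleted group. In TIM4+CD206+ KCs the second tumour-free library lies near the tumour libraries for C1qa, C1qb, C3, C4b and Cfb; after Id3 deletion the C1q chains lie below and C3 above all controls.

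The same comparison was made in the minor subset. In TIM4+CD206high KCs 8 of 9 components had lower means with tumour, beside 47.7% of tested genes, and none passed the test. With an unadjusted p under 0.05, 2 of the 9 were lower, C1qb and Cfp, beside 8.57% of all tested genes that were lower at this p and 3069 of 14561 that differed in either direction. Neither overlapped between the groups. Of the 14561 genes tested, 2.03% fell, 5.21% rose, and 15.2% were lower and 15.6% higher without overlap. The median difference of the 9 was −0.46, beside 0.03 for all tested genes.

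Cfp came closest to the threshold. It read 16.29, 16.57 and 16.39 in tumour-free and 15.94, 15.68 and 15.80 in tumour libraries, a difference of −0.61 (SE 0.17, adjusted p = 0.0819, limma). Without tumour-free library 3 it passed (−0.62, adjusted p = 0.0478, limma), as did 8.79% of all genes. C1qb read 17.55, 17.62 and 17.94 against 17.29, 17.21 and 17.25 (−0.46, adjusted p = 0.215, limma). C3 read 12.06, 11.18 and 13.02 against 11.26, 10.96 and 11.21 (−0.95, SE 0.43, adjusted p = 0.260, limma), and its tumour-free libraries spread over more than the difference. Without tumour-free library 2, C3 (−1.40, adjusted p = 0.0163, limma) and Cfb (−0.76, adjusted p = 0.0474, limma) fell, 2 of 9, in a fit that called 24.9% of all genes. Without tumour-free library 3 the difference of C3 was −0.48 and that of Cfb −0.20.

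C4b was the exception among the means. It read 14.51, 14.49 and 14.64 without and 14.77, 14.30 and 14.75 with tumour, a difference of 0.06, which turned to −0.10 when libraries were centred on their medians and to −0.02 without tumour library 1 or 3. C2 (12.56, 12.07 and 13.47 against 12.31, 12.12 and 12.11), Cfb (13.48, 12.997 and 14.12 against 13.19, 12.96 and 12.98) and C6 (14.73, 14.38 and 15.35 against 14.74, 14.41 and 14.44) overlapped, and in each tumour-free library 3 was the highest. Whether the effect of tumour differed between the subsets was not tested, since their tables were normalized separately.

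Tumour-free library 3 of this subset also broke the ratio of the C1q chains. C1qa read 16.88, 16.38 and 17.30 in the tumour-free libraries and C1qc 17.43, 17.52 and 16.80, so that C1qa minus C1qc was −0.55, −1.15 and 0.50. In the tumour libraries it was −0.63, −0.60 and −0.57. C1qb minus C1qc was 1.14 in tumour-free library 3 and 0.10 to 0.20 in the other 5 libraries of the subset. In TIM4+CD206+ KCs C1qa minus C1qb kept between −0.81 and −0.68 in all 6 libraries, while C1qb minus C1qc was 0.28 in tumour-free library 2 and 0.59 to 0.73 in the others. In the 5 libraries of the Id3 experiment C1qa minus C1qc lay between −0.83 and −0.69. The difference of C1qc between conditions in TIM4+CD206high KCs (17.43, 17.52 and 16.80 against 17.17, 17.07 and 17.05; −0.16, adjusted p = 0.711, limma) did not pass the test. It was −0.38 without tumour-free library 3, −0.02 without library 2 and −0.07 without library 1, and turned to 0.05 with quantile normalization.

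The third comparison asked what the deletion of Id3 changes in KCs without tumour. Id3 itself fell from 12.58, 12.46 and 12.82 to 9.83 and 9.82 (−2.80, adjusted p = 1.40e-06, limma). The genotypes also differed in sex-linked genes, Xist reading 6.38, 6.33 and 6.36 against 9.84 and 9.76 and Ddx3y 9.46, 9.43 and 9.43 against 6.9996 and 7.01, so genotype and sex cannot be told apart. Clec4f, which carries the cre allele, fell by 1.52.

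All C1q chains fell. C1qa, the A chain, read 17.41, 17.27 and 17.39 in Id3f/f and 16.94 and 16.92 in Clec4f-cre;Id3f/f KCs, a difference of −0.42 (SE 0.06), or 1.34-fold lower, with an adjusted p of 0.00799 (limma). C1qb read 18.41, 18.30 and 18.34 against 17.95 and 17.95 (−0.40, SE 0.06, 1.32-fold lower, adjusted p = 0.00644, limma). C1qc read 18.10, 18.03 and 18.09 against 17.77 and 17.75 (−0.31, SE 0.06, 1.24-fold lower, adjusted p = 0.0156, limma). In each chain the genotypes did not overlap. Over all 12833 genes tested 3.37% fell and 21.7% were lower without overlap.

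C3 rose. It read 10.91, 10.83 and 10.94 in controls and 11.37 and 11.43 after deletion, a difference of 0.51 (SE 0.09), or 1.42-fold higher, with an adjusted p of 0.0134 (limma), while 3.08% of all tested genes rose. The other components were higher without passing the test. Cfb read 13.47, 13.65 and 13.28 against 13.91 and 13.82 (0.39, adjusted p = 0.0597, limma), and C2 12.26, 12.37 and 12.25 against 12.56 and 12.48 (0.23, adjusted p = 0.139, limma). Cfp, on the X chromosome, read 16.34, 16.41 and 16.50 against 16.61 and 16.54 (0.15, adjusted p = 0.230, limma), narrowly without overlap. C4b (11.96, 11.64 and 11.44 against 11.91 and 11.81) and C6 (13.73, 13.77 and 14.09 against 13.99 and 14.01) overlapped. In all, 3 of 9 were lower and 4 higher without overlap, beside 21.7% and 20.2% of tested genes, with a median difference of 0.15 beside 0.0014.

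These calls depended on the number of libraries. Without Id3-deleted library 1 none of the 9 passed the test, with C1qa at −0.44 and C3 at 0.535, and 17 genes passed in all. Without Id3-deleted library 2 none passed either, with C1qa at −0.41 and C3 at 0.48, and 19 genes passed. Without Id3f/f library 3, 7 of 9 passed, C6 (0.25), Cfb (0.30) and Cfp (0.20) being called higher beside the 4, and 14.4% of all genes passed. With quantile normalization C1qc, C3, Cfb (0.47) and Cfp (0.35) passed, beside 6.09% of all genes, and C1qa (−0.16) and C1qb (0) did not. This setting fixes values by rank, and C1qb was the gene of rank 6 in all 5 libraries.

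**Figure D3:**
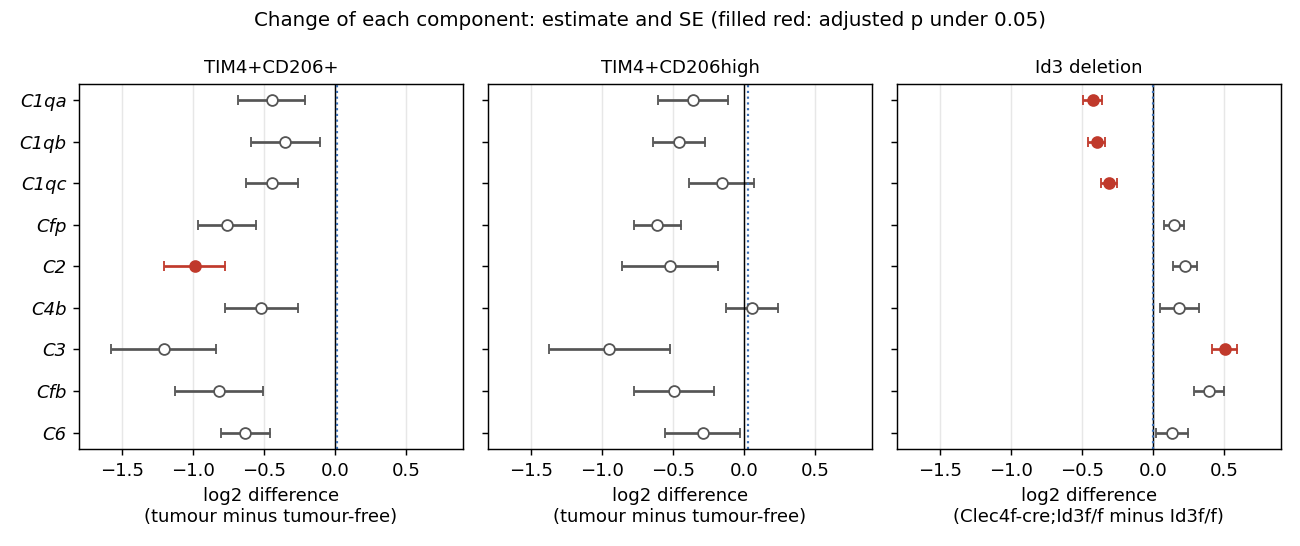
Difference of each component (log2 scale, x axis, point with SE) in the 3 comparisons; filled red points have an adjusted p under 0.05 in limma and the dotted line is the median of all tested genes. C2 alone is red in TIM4+CD206+ KCs, none in TIM4+CD206high KCs, and after Id3 deletion the C1q chains are red at −0.42 to −0.31 and C3 at 0.51.

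The components known as hepatocyte products were set beside albumin (Alb) and transferrin (Trf), both secreted by hepatocytes. Alb read 12.85, 12.80 and 13.08 in tumour-free and 10.48, 10.16 and 11.23 in tumour TIM4+CD206+ KCs, and fell by 2.29 (adjusted p = 0.00281, limma). Within each TIM4+CD206+ library, C4b minus Alb was 2.82, 1.86 and 2.26 without and 4.41, 4.35 and 3.49 with tumour, and C6 minus Alb 1.78, 1.72 and 1.24 and then 3.64, 3.57 and 2.51. These values are not divided by length, so only their shift between groups is read. The means of all 5 components were higher against Alb with tumour, C3 with overlap between the groups and the others without.

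Against Trf the means went the other way in TIM4+CD206+ KCs. Trf did not pass the test in any comparison (−0.47, −0.13 and −0.23). With tumour in TIM4+CD206+ KCs, the mean of C3 minus Trf went from −4.60 to −5.34, that of C2 from −3.53 to −4.05, that of Cfb from −3.19 to −3.54, that of C6 from −2.55 to −2.71 and that of C4b from −1.82 to −1.87. In TIM4+CD206high KCs C4b minus Trf went up, from −1.84 to −1.65, and the other 4 went down. The direction thus depended on which gene was taken. Trf stood at 15.68 per kb and Alb at 11.89 in tumour-free TIM4+CD206+ KCs. With tumour in this subset the median difference was −1.34 for the 18 hepatocyte markers and −0.39 for the 12 KC markers, beside −0.47 for Trf. How much of the Trf message came from hepatocytes was not tested.

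Per kb, C6 (12.97), C4b (12.80), Cfb (12.39) and C2 (12.11) stood above Alb (11.89 ± 0.15) in tumour-free TIM4+CD206+ KCs, C3 (10.08) stood below it, and all 5 stood below Trf (15.68 ± 0.20). Complement genes of the terminal pathway were low in the same libraries, with C9 at 5.30 ± 0.10, C8a at 3.90 ± 0.16 and Hc, which codes for C5, at 2.92 ± 0.14 per kb. In tumour-free TIM4+CD206high KCs Alb stood at 12.34 ± 0.56 per kb and fell by 2.06 with tumour (adjusted p = 0.00891, limma). There C6 had a higher mean than Alb, the other 4 a lower one, and all 5 stood below Trf (15.02 ± 0.26), while Hc was at 5.47 ± 0.56. In Id3f/f KCs Alb stood at 12.15 ± 0.30, close to C6 and Cfb, and did not pass the test after deletion (0.32, adjusted p = 0.240, limma). Trf, the most abundant of the hepatocyte markers, stood at 14.32 ± 0.27 there.

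Acute phase and interferon genes were read beside the C1q chains. Irf7, an interferon-induced transcription factor and the most abundant gene of the acute phase and interferon list, read 16.37, 15.38 and 16.14 in tumour-free and 14.95, 15.0025 and 15.09 in tumour TIM4+CD206+ KCs, with tumour-free library 2 nearest to the tumour values (−0.95, adjusted p = 0.0863, limma). It fell in TIM4+CD206high KCs with tumour (−0.82, adjusted p = 0.0438, limma), and after Id3 deletion from 14.52, 14.62 and 14.66 to 14.19 and 14.07 (−0.47, adjusted p = 0.0133, limma). Of the 15 genes of this list, 1, 2 and 6 fell in the 3 comparisons, beside 0.998%, 2.03% and 3.37% of all tested genes. None rose, beside 2.55%, 5.21% and 3.08%. Means of 7, 7 and 11 of the 15 were lower, beside 47.9%, 47.7% and 49.6% of all tested genes. The median differences were 0.21, 0.06 and −0.18. The list joins acute phase to interferon genes, so its counts are not of interferon genes alone. Its summed level was 16.61 to 17.38 in tumour-free and 16.45 to 16.59 in tumour TIM4+CD206+ KCs, 16.28 to 16.82 and 15.79 to 15.89 in TIM4+CD206high KCs, and 16.02 to 16.04 in Id3f/f and 15.52 to 15.57 in Id3-deleted KCs. C3, which rose after deletion, did not follow it there. The part of these genes in the C1q values was not tested.

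Over the 17 libraries, after each gene was centred on its mean in each table, C1qa and C1qb followed Irf7 with r = 0.89 and 0.91, Cfp with r = 0.84, C2 and C3 with r = 0.81 each, Cfb with r = 0.77 and C1qc with r = 0.60. Markers of other kinds were followed as well. Cfp and C2 had r = 0.86 and 0.82 with Alb, and C1qa and C1qb had r = 0.64 and 0.65. With Apoa1, another hepatocyte marker, Cfp and C2 had r = 0.79 and 0.40, and C1qa and C1qb had r = 0.27 and 0.40. With the KC marker Cd5l, C2, C3 and Cfb had r = 0.96, 0.935 and 0.93. Their r with the KC marker Clec4f was only 0.39, 0.31 and 0.26. C1qb had r = 0.87 with the endothelial marker Clec4g and 0.60 with the endothelial marker Stab2. All of these are descriptions over libraries that share conditions, depth and normalization. C1qa and C1qb correlated with r = 0.91, but with C1qc only at 0.35 and 0.52. C2, C3 and Cfb formed the tightest group, with r of 0.94 to 0.96 between them, and C6 correlated with C2 at 0.86.

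**Figure D4:**
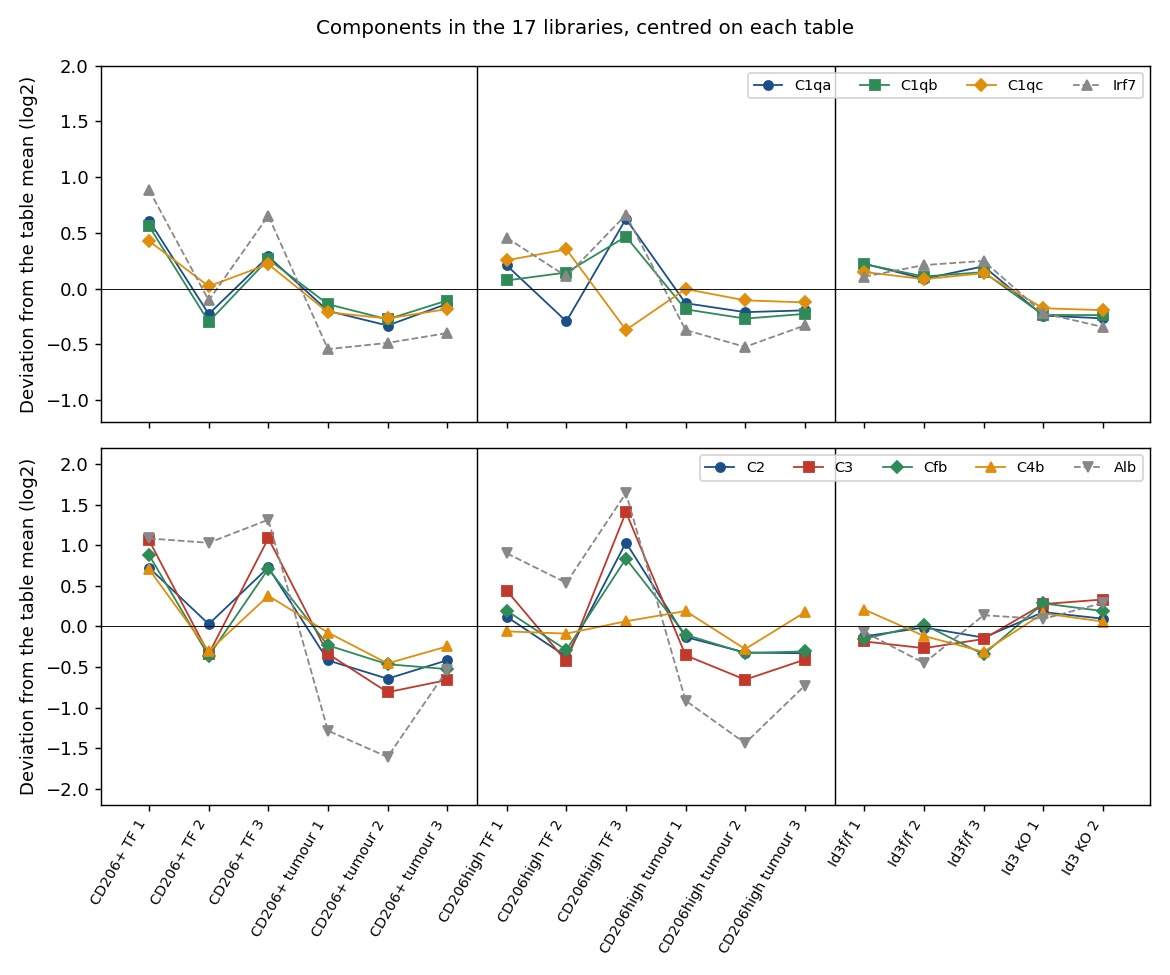
Deviation of single libraries from the mean of their table (log2 scale, y axis) for the C1q chains with Irf7 (top) and for C2, C3, Cfb and C4b with Alb (bottom), in the 17 libraries; vertical lines separate the 3 tables. C1qa and C1qb mostly run with Irf7, C1qa departs in the second and C1qc in the third TIM4+CD206high tumour-free library, and C2, C3 and Cfb run together, below their table mean in all tumour libraries and above it in both Id3-deleted ones.

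The genes most like each component by this measure, among the 12222 tested in all tables, were for C1qa the interferon-induced genes Trex1 (r = 0.97), Zbp1 and Ly6e (both 0.96). For C1qb they were Ube2l6 (0.96), Slc50a1 and Lst1 (both 0.94), and for C1qc Dguok (0.90), Nrros (0.89) and Zbtb8a (0.88). Cfp was most like Fbp1 (0.96), Cd209f and Gle1 (both 0.95). C2 was most like Tlr12 (0.97), Rasgef1b (0.97) and C3 (0.96), C3 like Rassf4 (0.97), Clec4a1 (0.97) and Cfb (0.96), and Cfb like Eps15l1 (0.97), Anxa6 (0.97) and C3 (0.96). C6 was most like Lcp2, P2ry13 and Serinc3 (0.93 each), and C4b like P2rx7 (0.87), Clcn7 and Gm10814 (both 0.86). The median r over all genes was between −0.03 and 0.05 for the 9 components.

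Other complement genes were read by their role from a list of 46, of which 45 were in the tables. In TIM4+CD206+ KCs 36 were tested, of which 4 fell and 2 rose, and in TIM4+CD206high KCs 40, of which 9 fell and 2 rose. After Id3 deletion 37 were tested, 2 rose and none fell. Of all tested genes 0.998% fell and 2.55% rose in TIM4+CD206+ KCs, and 2.03% and 5.21% in TIM4+CD206high KCs. After Id3 deletion 3.37% of all tested genes fell and 3.08% rose. The medians of the listed genes were −0.30, −0.35 and −0.02, beside 0.02, 0.03 and 0.0014 for all tested genes. Clu in both subsets, and Itgax and Cd59a in TIM4+CD206high KCs, passed the test whichever library was left out. The other calls of the tumour comparisons were each lost without tumour-free library 1, tumour library 1 or tumour library 2 of their subset, and some without other libraries too, and both calls of the Id3 comparison were lost without either Id3-deleted library.

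Means of 9 of 9 tested initiators and early proteases in TIM4+CD206+ KCs were lower with tumour, beside 47.9% of all tested genes. In TIM4+CD206high KCs those of 10 of 11 were lower, beside 47.7%. Of the early proteases and lectin pathway genes, C1ra fell in TIM4+CD206+ KCs, from 10.87, 10.79 and 10.85 to 9.86, 9.53 and 9.87 (−1.08, adjusted p = 0.0139, limma), and it codes for the protease that C1q activates. In TIM4+CD206high KCs its partner C1s1 (−1.17), the mannose-binding lectin Mbl2 (−1.83) and the collectins Colec10 (−2.12) and Colec11 (−1.82) fell, with adjusted p-values of 0.0202 to 0.0290 (limma). Colec11 is also among the stellate and fibroblast markers above. Fcna, ficolin A, was the most abundant of the role, at 17.97, 17.50 and 17.02 in tumour-free and 17.12, 16.99 and 17.18 in tumour TIM4+CD206+ KCs, and did not pass the test in any comparison. In the Id3 experiment it read 16.77, 16.73 and 16.99 against 16.52 and 16.50 (−0.31, adjusted p = 0.0536, limma).

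The 4 tested components of the membrane attack complex other than C6 fell in TIM4+CD206high KCs, where C8a (−1.19), C8b (−1.68), C8g (−0.87) and C9 (−1.23) all passed the test with adjusted p-values of 0.0131 to 0.0421 (limma). Without the filter C8a (0.0508), C8g (0.0649) and C1s1 (0.0523) lost their calls by adjusted p in limma, and C8g also at a mean of at least 50 counts (0.0504). In TIM4+CD206+ KCs C8a alone of the 4 passed the test (−1.08, adjusted p = 0.0209, limma). After deletion of Id3 none of the 4 tested differed by more than 0.05. Of these 4 genes, C8a and C9 stood far below Alb per kb in each table. Hepatocyte markers fell in the tumour comparisons, and their part in these genes was not tested. The most abundant of the 4, C8g, read 9.01, 8.10 and 8.55 without and 7.21, 7.62 and 7.83 with tumour in TIM4+CD206+ KCs.

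Among soluble regulators, clusterin (Clu), which keeps the attack complex from membranes, rose in both subsets. It read 12.34, 11.04 and 12.13 against 14.51, 14.15 and 14.14 in TIM4+CD206+ KCs (2.43, SE 0.32, adjusted p = 0.00514, limma) and 11.66, 11.75 and 12.21 against 15.08, 15.16 and 14.48 in TIM4+CD206high KCs (3.04, SE 0.24, adjusted p = 0.000389, limma). Epithelial tumour markers rose in the same libraries, and their part in Clu was not tested. Serping1, the C1 inhibitor, and Vtn, vitronectin, fell in TIM4+CD206+ KCs (−1.48 and −1.49, adjusted p = 0.0299 and 0.0233, limma). After Id3 deletion none of the 8 tested passed the test.

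Of the membrane regulators, Cd59a, which blocks the attack complex, fell in TIM4+CD206high KCs from 12.58, 12.43 and 12.84 to 10.87, 11.43 and 11.28 (−1.43, adjusted p = 0.00614, limma). Cd55, which dissociates the C3-cleaving enzymes, rose after Id3 deletion from 11.64, 11.65 and 11.75 to 12.42 and 12.43 (0.74, adjusted p = 0.00239, limma). In TIM4+CD206high KCs it read 13.92, 13.41 and 13.75 against 12.75, 12.99 and 13.06 and did not pass (adjusted p = 0.0567, limma). Cr1l, the most abundant of them in TIM4+CD206+ KCs, did not pass the test in any comparison.

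Among receptors, Vsig4, the receptor by which KCs capture C3b-coated particles, was the most abundant and did not pass the test in any comparison (−0.24, −0.30 and −0.15). The integrin subunit of complement receptor 4, Itgax, rose with tumour in both subsets, from 10.15, 9.85 and 10.63 to 11.30, 11.47 and 11.19 (1.10, adjusted p = 0.0370, limma; 0.0533 to 0.0662 without the filter, without the mean-variance trend or with median centring) and from 8.76, 9.26 and 9.30 to 10.69, 10.97 and 10.47 (1.60, adjusted p = 0.00588, limma). Its shared partner subunit Itgb2 rose after Id3 deletion, from 13.03, 13.01 and 12.90 to 13.52 and 13.57 (0.57, adjusted p = 0.00618, limma). Monocyte markers rose with tumour as given above, and their part in Itgax was not tested.

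**Figure D5:**
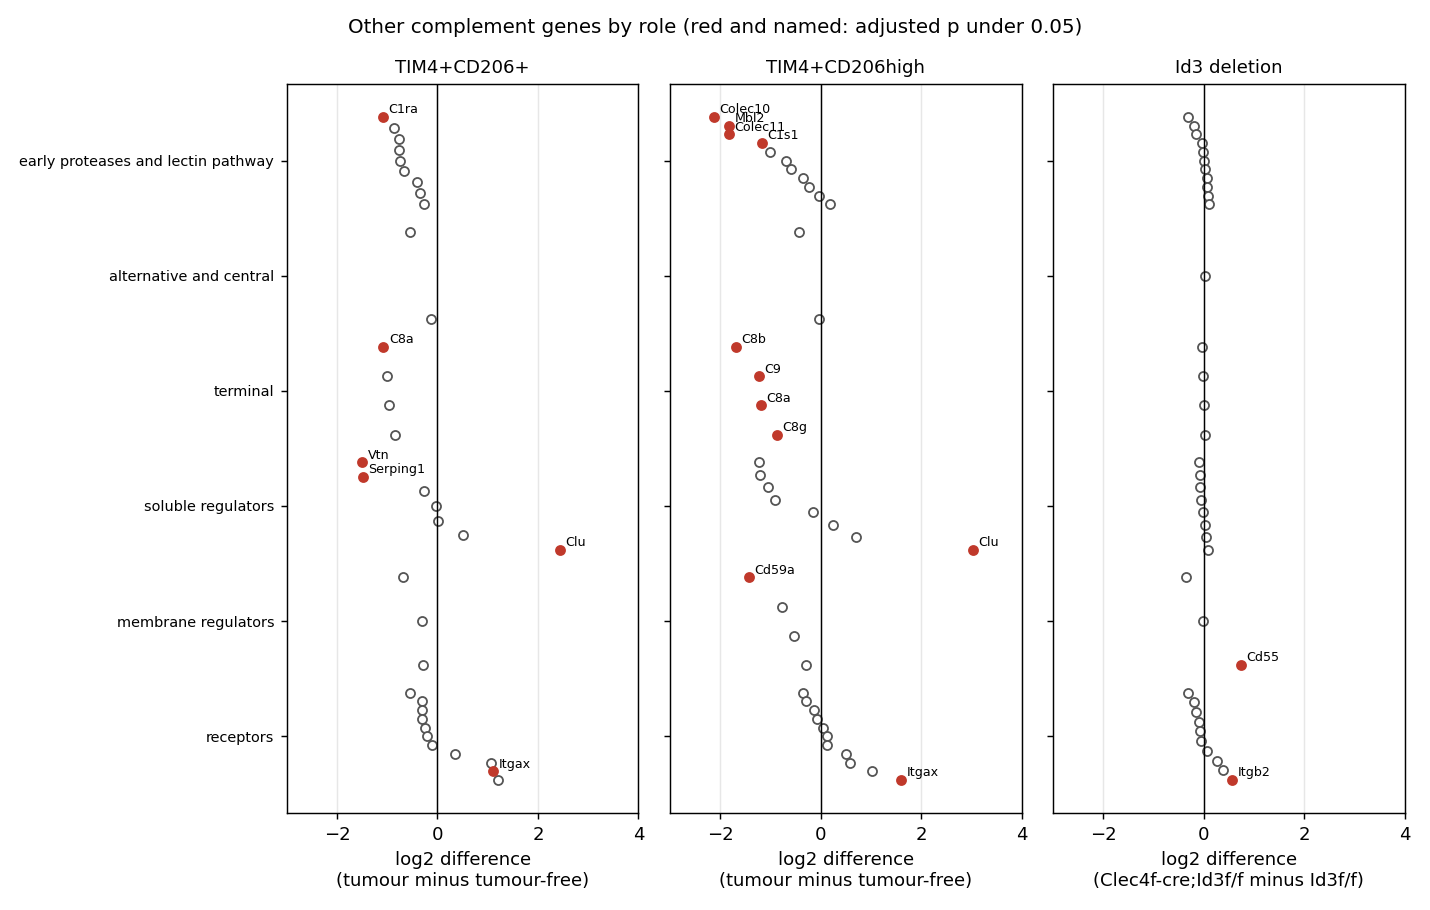
Difference of the other complement genes (log2 scale, x axis) by role in the 3 comparisons, each point a tested gene, red and named where the adjusted p was under 0.05 in limma. With tumour the 4 terminal genes lie left of 0 in both subsets and Clu and Itgax to the right; after Id3 deletion Cd55 and Itgb2 are the named genes.

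Genes beside the components were read for shifts of a whole chromosome region. Of 88 genes within 1 Mb of Id3 or of the C1q genes, 28 were tested in the Id3 comparison. None fell, beside 3.37% of all tested genes, and 1 rose, Ece1 (0.55, adjusted p = 0.0235, limma), beside 3.08%. The median difference of the 28 was −0.01. Between Id3 and the C1q genes lie 18 annotated genes, of which 6 were tested there, and none passed the test. Of the 73 genes within 250 kb of C2, Cfb and C4b, 36 were tested in this comparison and none passed, beside 827 of all 12833. In the tumour comparisons 1 of 40 and 3 of 45 passed, beside 469 of 13233 and 1053 of 14561 in all. The gene that passed in TIM4+CD206+ KCs was Slc44a4, which went from a mean of 4.46 to 7.67 (3.21, adjusted p = 0.000155, limma). It also rose in TIM4+CD206high KCs (4.90). Tumour epithelium markers rose in the same libraries, and their part in Slc44a4 was not tested.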

How the data were processed

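RNA of sorted KCs was amplified with a kit that keeps no strand and sequenced, and, per the labels, reads were aligned to mm10 with STAR 2.7.10a, counted with HTSeq and processed with DESeq2. The deposited values were made by the authors on a regularized log2 scale, normalized separately in each of 3 tables; column headings name them differently, so the scale was read from the values. Raw counts and sequencing depth were not used here. Genes with a value of at least log2 of 10 in 3 samples (2 for the Id3 table) entered the test. It was made in R 4.3.3 by limma 3.58.1, letting the variance follow the mean, and p-values were adjusted by Benjamini-Hochberg over every gene tested, at a threshold of 0.05. The test was checked on simulated data whose noise was independent between genes, so deviations shared by a whole library were not part of it. Levels per kb subtract log2 of transcript length. The labels do not state that equal replicate numbers are pairs. In TIM4+CD206+ KCs deviations from the group means correlated within each number (r = 0.35, 0.56 and 0.15), so the fit with that block is given beside the results of this subset. Named genes were all 9 components, other complement genes that passed the test or were the most abundant of their role, and the 3 genes most like each component. Members and lists were chosen with earlier results of these data known. Other settings tried were the filter, the trend, centring, quantile normalization and leaving out each library. Python 3.11.15 was used for descriptions.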

Additional observations from a re-analysis of the deposited data

How the results depend on the processing

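In TIM4+CD206+ KCs 1 of 9 components passed the test, against 0 without the filter, without the mean-variance trend or with median centring, and 0 to 8 with single libraries left out. With the replicate block 4 passed there, and 1026 genes in all against 469, while leaving out single libraries gave 228 to 1018. In TIM4+CD206high KCs 0 components passed, 0 to 2 with single libraries left out, and 1053 genes in all became 600 at a mean of at least 50 counts and 579 to 3653 with single libraries left out. The difference of C4b there turned from 0.06 to −0.10 with median centring and lay between −0.024 and 0.21 with single libraries left out, below 0 without tumour library 1 (−0.024) or 3 (−0.016), and that of C1qc from −0.16 to 0.047 with quantile normalization. After Id3 deletion 4 components passed, 7 with the replicate block and 0 to 7 with single libraries left out. Of all genes 827 passed, against 477 without the filter, 2089 with the replicate block and 17 to 1850 with single libraries left out.

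Within replicate numbers, deviations did not correlate positively in the Id3 experiment (r = −0.07 and −0.10) or in TIM4+CD206high KCs (r = −0.05, −0.13 and −0.05). In TIM4+CD206high KCs the replicate block left 909 genes and 0 components. It took the calls of C1s1, Colec11, C8a, C8g and C9 in TIM4+CD206high KCs, and none of those of the other complement genes in TIM4+CD206+ KCs. New calls among the other complement genes were not looked for in the settings tried. C2 and Itgax in TIM4+CD206+ KCs lost their calls without the filter, without the trend and with median centring, and C1s1, C8a and C8g in TIM4+CD206high KCs without the filter. The cause of these changes was not tested. Where 1 library was left of a group, it was assumed to vary like the other group. Depth was not known, and the scale understates differences of genes with few reads.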
